A study of Mus musculus with 8 samples.

Results

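The 35 genes described here encode the proteins that carry an electrical signal from the surface of a muscle fibre to its calcium store and return the calcium afterwards. They were chosen by name for these roles and not by a rule on measured values, though earlier results of these data were known. All 35 had a row among the 27179 genes of the expression table. C2C12 cells, 1 immortalized line of mouse myoblasts, were grown on collagen. GM samples came from cultures at 50% confluence in high glucose DMEM with 10% fetal bovine serum, a growth medium in which the cells divide. For 3d DM samples, cultures above 90% confluence were moved to the same DMEM with 2% horse serum, and RNA was taken 3 days later, when myoblasts exit the cell cycle and fuse into myotubes. Each state had 2 input libraries of polyadenylated RNA and 2 libraries of RNA precipitated with an antibody against N6-methyladenosine (m6A IP). The states differed in medium, confluence and time in culture, and the labels give no other treatment. The labels do not say that the libraries of a state came from separate cultures, so p-values rest only on the spread between these samples, which may be technical. In the main test of RNA that spread was taken over genes of like expression level and not gene by gene.

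In skeletal muscle, an action potential carried by the sodium channel Scn4a runs into the T tubules, where the voltage sensor Cacna1s moves and opens the ryanodine receptor Ryr1 in the facing membrane of the sarcoplasmic reticulum. Calcium bound to calsequestrin in the reticulum is thereby set free, activates the contractile filaments, and is pumped back by the calcium ATPases Atp2a1 and Atp2a2. Junctophilins hold both membranes at a fixed distance, triadin links calsequestrin to the release channel, and Stim1 with Orai1 refills the store from outside the cell.

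In the input libraries the state of the cells was read from 4 genes. The embryonic myosin *Myh3* had values of 1068 and 273.0 in GM against 33485 and 51674 in 3d DM, *Ckm* (muscle creatine kinase) 109.9 and 17.1 against 1740 and 1996, *Myog* (the differentiation factor myogenin) 1008 and 220.8 against 5392 and 11502, and *Mki67*, a marker of dividing cells, 3586 and 3659 against 446.3 and 760.4. All 8 markers of the skeletal muscle lineage passed the filter on low values. The 3 endothelial markers summed to at most 1.4 in a library, the 3 adipocyte markers were at 0 in all 4, the 3 leukocyte markers summed to 16.1 to 26.4, and the 4 markers of neurons and glia to 4.0 to 14.0. The 3 smooth muscle markers summed to 824.8 and 887.0 in GM against 1029 and 1434 in 3d DM, nearly all of it *Smtn*, which was not called (limma adjusted p = 0.473), while *Myh11* was at 6.0 or less and *Cnn1* at 49.1 or less. The 5 cardiac markers summed to 44.1 and 55.1 in GM against 398.1 and 597.1 in 3d DM, of which *Myh6* gave 4.1, 8.0, 373.0 and 568.5, while *Myl7* was at 0 and *Nppa* at 3.4 or less. Their part in the results was not tested. Values are normalized by library and have no absolute unit, and each library sums to about the same total. In that total 1 gene row, Entrez identifier 100861531, which had no symbol in the table used here, held 24.4% and 33.2% in GM against 41.3% and 25.6% in 3d DM. The 2 GM libraries also differed in muscle genes, as the values of *Myh3*, *Ckm* and *Myog* show, and GM replicate 1 was the higher.

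Of the 35 genes, 23 were higher in 3d DM than in GM and none was lower, where a gene was called when its adjusted p was under 0.05 in limma on log2(value + 1) with Benjamini-Hochberg adjustment over all 11406 tested genes. Over all tested genes, 7.01% were called higher and 9.96% lower. The members with the largest log2 fold changes (3d DM minus GM) were *Scn4a*, *Casq2*, *Casq1*, *Cacna1s* and *Hrc*, from 6.71 to 5.15. Another 9 members were tested and not called, and 3 members (*Sln*, *Pln* and *Clcn1*) stayed under the filter in all 4 libraries and were not tested. The median log2 fold change was 2.57 over the 32 tested members and -0.22 over all tested genes. *Casq1*, *Scn4a* and *Camk2b* passed the filter through the 3d DM libraries alone, so they had to be higher there. With the stricter filter of 3 libraries they left the test, and 20 of the remaining members were called. In bulk RNA, fewer cells that express a gene and less RNA of it per cell cannot be told apart.

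**Figure D1:**
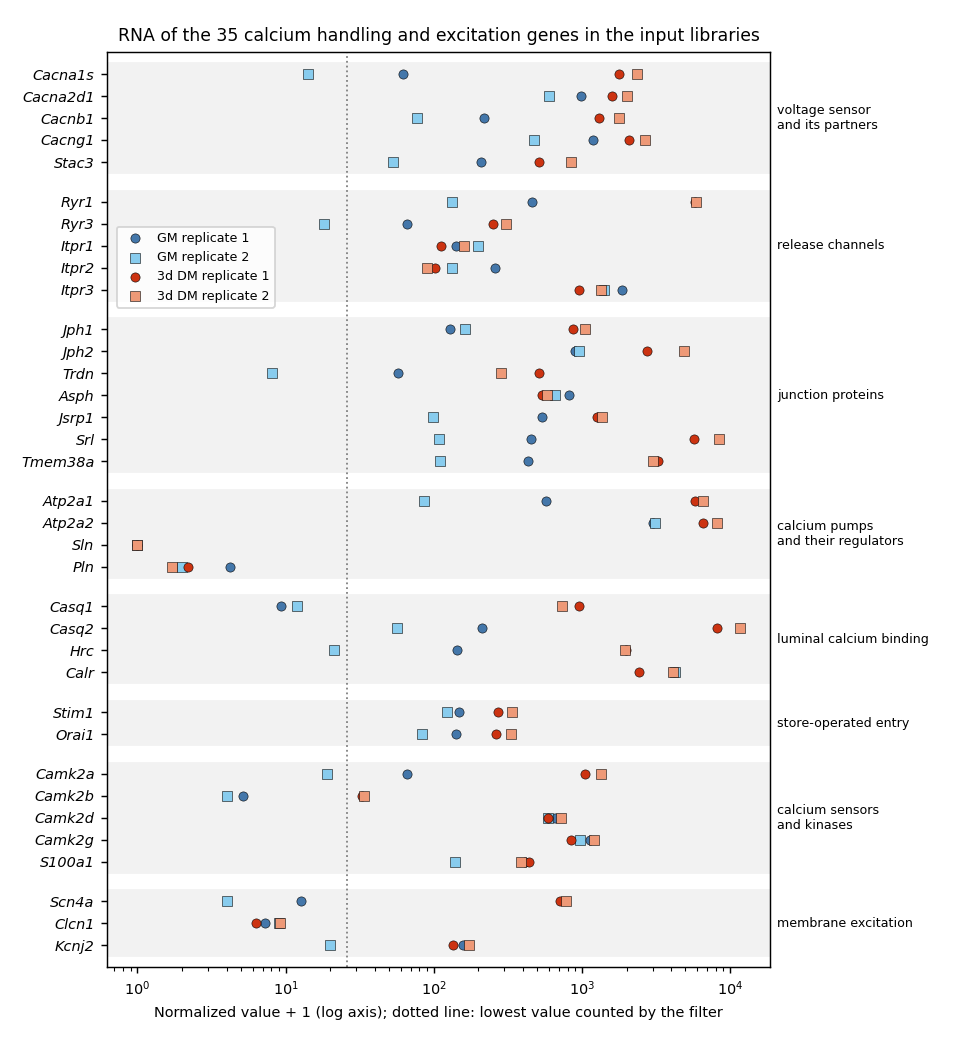
Normalized value plus 1 (log axis) of each of the 35 members in the 2 GM and 2 3d DM input libraries, grouped by role, with a dotted line at the filter value of 25.1. For *Ryr1*, *Srl*, *Casq2* and most junction proteins both 3d DM points lie right of both GM points, whereas the points of *Itpr1*, *Camk2d* and *Camk2g* overlap.

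Both 3d DM libraries lay above both GM libraries for 23 members, against 16.8% of all tested genes. These were *Stim1* and 22 of the called members, among them *Casq1*, *Scn4a* and *Camk2b*, whose order the filter fixed. The exception among the called was *Kcnj2*. Both 3d DM libraries lay below both GM libraries for *Itpr2*, *Itpr3*, *Asph* and *Calr*, none of them called. The share of all tested genes with that order was not computed. GM replicate 1 was above GM replicate 2 in 19 of the 23 called members, by a median ratio of 3.77 (range 0.755 to 8.18), while the median ratio over all tested genes was 1.16. The reason for this difference between the GM libraries was not tested. The call count was 20 without GM replicate 1, 16 without GM replicate 2, 5 without 3d DM replicate 1 and 8 without 3d DM replicate 2, where a lone sample is assumed to vary like the other state. All 23 kept a higher value in 3d DM each time, except *Kcnj2* without GM replicate 2. Each of these fits still filtered on all libraries, so *Casq1*, *Scn4a* and *Camk2b* had to keep that order. In the main fit, limma gave no weight to how the 2 replicates of a gene differed. A standard error there came from the trend of spread over expression level alone, so an adjusted p does not measure that gene's own spread. Rescaling the libraries moved the median of all genes from -0.22 to -0.02 by median-of-ratios factors and to -0.03 by trimmed-mean factors. Under both, 23 members were called, with *Stim1* in and *Kcnj2* out. In both rescaled fits, and in the fits without a 3d DM library, a gene's own replicates had weight. Those without a GM library kept the error model of the main fit. Adjusted p without a 3d DM library thus differs from the main fit in its error model as well as in its libraries. Under median-of-ratios the adjusted p in limma was 0.00166 for *Casq2*, against 1.97e-48 in the main fit, and 0.00275 for *Cacna1s*, against 2.27e-36.

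**Figure D2:**
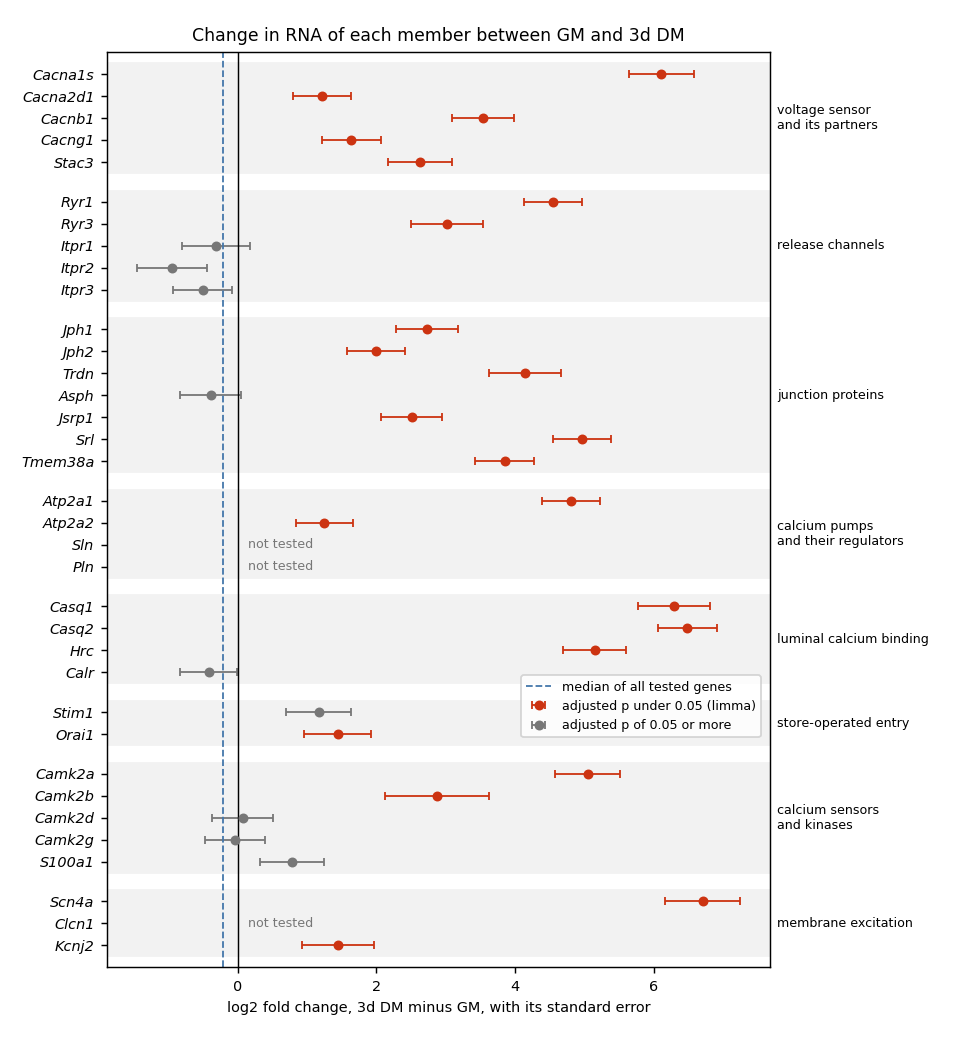
Log2 fold change of each tested member, 3d DM minus GM, with its standard error, by role, and the median of all tested genes as a dashed line. Red points (adjusted p under 0.05) fill the voltage sensor group from 1.21 to 6.11, while the inositol trisphosphate receptors sit left of 0 in grey.

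All 5 members of the voltage sensor group were called higher. *Cacna1s*, the pore-forming and voltage-sensing subunit of the T-tubule calcium channel, had values of 61.4 and 13.1 in GM against 1775 and 2348 in 3d DM (37.2 ± 34.2 against 2062 ± 405.1, SD, n = 2). Its log2 fold change was 6.11 (SE 0.47, limma adjusted p = 2.27e-36), and the libraries of the states were far apart. *Cacnb1*, the cytoplasmic β subunit that docks the channel at the junction, had 218.0 and 76.3 in GM against 1298 and 1770 in 3d DM, a log2 fold change of 3.54 (SE 0.45). *Stac3*, the adaptor that the channel needs to work in skeletal muscle, had 208.7 and 52.2 against 511.5 and 838.8, a change of 2.63 (SE 0.46). The other two subunits already had substantial values in GM and changed less. *Cacng1*, the γ subunit, had 1193 and 474.7 in GM against 2084 and 2660 in 3d DM (log2 fold change 1.64). *Cacna2d1*, the extracellular α2δ subunit, had 985.2 and 603.1 against 1589 and 2002 (1.21, limma adjusted p = 0.0297). Without GM replicate 2, the adjusted p in limma was 0.578 for *Cacng1* and 0.18 for *Stac3*. Without 3d DM replicate 1 it was 0.0511 for *Cacna1s*, 0.0604 for *Cacnb1*, 0.191 for *Cacng1* and 0.148 for *Stac3*, and without 3d DM replicate 2 it was 0.0585 for *Cacnb1*, 0.183 for *Cacng1* and 0.163 for *Stac3*. *Cacna2d1* lost its call without any 1 library (adjusted p from 0.147 to 0.698) and without the intensity trend (0.0556).

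The release channels split by family. Both ryanodine receptors among the members rose, and none of the 3 inositol trisphosphate receptors, which release calcium in most cell types, was called. *Ryr1*, the release channel that the voltage sensor opens, had values of 461.0 and 132.5 in GM against 5753 and 5847 in 3d DM (296.7 ± 232.3 against 5800 ± 66.3, SD, n = 2). The log2 fold change of *Ryr1* was 4.55 (SE 0.42, limma adjusted p = 1.52e-24), with an adjusted p of 0.0524 without 3d DM replicate 1. *Ryr3*, a second isoform found in developing muscle, had 64.5 and 17.1 against 250.9 and 308.4, a change of 3.02 (SE 0.52), with an adjusted p of 0.138 without 3d DM replicate 1 and 0.114 without 3d DM replicate 2. *Itpr3* had 1854 and 1419 in GM against 962.0 and 1353 in 3d DM, *Itpr2* 257.8 and 132.5 against 101.7 and 89.7, and *Itpr1* 140.7 and 196.7 against 111.6 and 159.2. The log2 fold changes of these 3 receptors were -0.51, -0.95 and -0.32, with limma adjusted p of 0.504, 0.208 and 0.770. The GM and 3d DM libraries overlapped for *Itpr1* only.

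Levels of different genes can be set side by side per kb of exon. On that scale *Ryr1* made up 87.9% and 88.7% of the sum of these 2 ryanodine receptors in GM against 95.9% and 95.1% in 3d DM. *Itpr3* was the highest inositol trisphosphate receptor in every library, with 83.5% to 86.4% of the sum of the 3. The level per kb of the ryanodine receptors together was 34.0 and 9.67 in GM against 388 and 398 in 3d DM, and that of the inositol trisphosphate receptors 242 and 189 against 127 and 174. In each GM library the inositol trisphosphate receptors thus had the higher summed level, and in each 3d DM library the ryanodine receptors did.

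**Figure D3:**
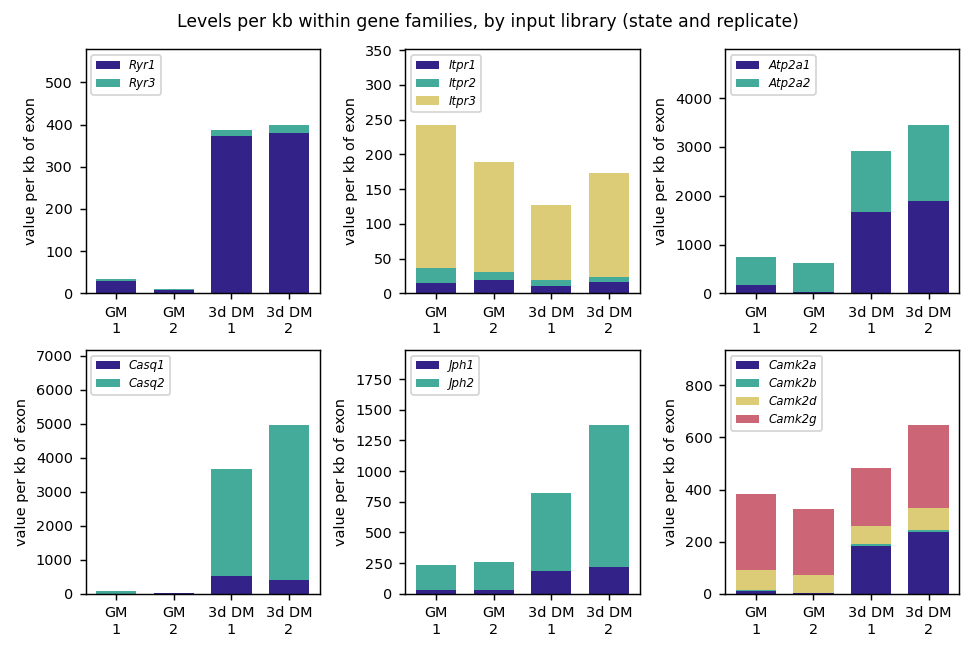
Level per kb of exon (bars, stacked by gene) in the 4 input libraries for 6 families among the members. *Atp2a1* is a small part of its bar in GM against 57.2% and 55.1% of it in 3d DM, whereas *Itpr3* dominates its family in every library.

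Of the 7 junction proteins, 6 rose. *Srl* (sarcalumenin, a calcium-binding glycoprotein of the reticulum) had values of 450.5 and 107.4 in GM against 5723 and 8440 in 3d DM, a log2 fold change of 4.97 (SE 0.42, limma adjusted p = 2.32e-29). *Trdn* (triadin, which links calsequestrin to the release channel) had 56.2 and 7.1 against 510.4 and 283.7, a change of 4.15 (SE 0.52). *Tmem38a*, a cation channel of the reticulum that balances charge during release, had 430.5 and 108.4 against 3252 and 3009 (3.85, SE 0.43). In all 3, the lower 3d DM library was several times the higher GM library. *Jph1*, a junctophilin, had 128.1 and 160.6 in GM against 869.5 and 1050 in 3d DM (log2 fold change 2.73, SE 0.45). *Jph2*, the second junctophilin, had 899.8 and 950.3 against 2740 and 4911 (1.99, SE 0.42). These were the 2 called junction proteins with close values in the GM libraries. *Jsrp1*, which binds both the voltage sensor and calsequestrin, had 538.9 and 97.4 in GM against 1266 and 1366 in 3d DM (2.51, SE 0.44). Its adjusted p was 0.377 without GM replicate 2. Without 3d DM replicate 1, adjusted p in limma was 0.052 for *Srl*, 0.191 for *Trdn*, 0.0853 for *Tmem38a* and 0.265 for *Jsrp1*, and without 3d DM replicate 2 it was 0.0516 for *Jph2*, 0.0873 for *Trdn*, 0.0611 for *Tmem38a* and 0.185 for *Jsrp1*. *Asph*, whose locus encodes an aspartate β-hydroxylase as well as the junction protein junctin, had 812.7 and 657.3 in GM against 538.8 and 580.5 in 3d DM (-0.39, limma adjusted p = 0.660). The table has 1 value per gene, so the products of this locus are not told apart. Per kb, *Jph2* was 78.1% to 88.8% of the junctophilin sum in every library.

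Both calcium pumps rose, and their regulators were hardly measured. *Atp2a1*, the pump of fast fibres, had values of 570.5 and 84.3 in GM against 5786 and 6605 in 3d DM (log2 fold change 4.81, SE 0.42, limma adjusted p = 2.65e-27). *Atp2a2*, the pump of slow and cardiac muscle and, as another isoform, of most cells, had 3030 and 3109 against 6576 and 8153 (1.25, SE 0.41, limma adjusted p = 0.0154). *Atp2a2* was the pump with close GM libraries, and the GM libraries of *Atp2a1* differed by a ratio of 6.76. Per kb, *Atp2a1* was 22.2% and 3.95% of the sum of both pumps in GM against 57.2% and 55.1% in 3d DM. On that scale the higher of the pair changed between the states. By value, *Atp2a2* was the higher in every library, so the switch rests on the exon lengths, 3.48 kb for *Atp2a1* and 5.28 kb for *Atp2a2*. These lengths join annotated transcripts, whether or not they were expressed here. The adjusted p of *Atp2a2* was 0.191 without GM replicate 1, 0.192 without GM replicate 2, 0.0877 without 3d DM replicate 1 and 0.102 without 3d DM replicate 2. That of *Atp2a1* was 0.0899 without 3d DM replicate 1 and 0.071 without 3d DM replicate 2. *Sln* (sarcolipin), a small inhibitor of the pumps, was listed at 0 in all 4 libraries. *Pln* (phospholamban), its counterpart in heart and slow muscle, had 3.2, 1.0, 1.2 and 0.7.

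Of the 4 luminal calcium-binding proteins, the 3 specific to muscle rose and the 1 found in most cells was not called. *Casq2*, a calsequestrin of heart and developing skeletal muscle, had values of 209.7 and 55.2 in GM against 8133 and 11685 in 3d DM (132.5 ± 109.2 against 9909 ± 2511, SD, n = 2). Its log2 fold change was 6.49 (SE 0.43, limma adjusted p = 1.97e-48). *Casq1*, the calsequestrin of adult fast muscle, had 8.3 and 11 in GM, both under the filter, and 949.1 and 735.5 in 3d DM (6.30, SE 0.52). *Casq2* held 94.8% and 78.3% of the calsequestrin level per kb in GM against 86.1% and 92.0% in 3d DM. *Hrc*, a histidine-rich calcium-binding protein that attaches to triadin, had 143.6 and 20.1 against 1979 and 1938 (5.15, SE 0.46), with an adjusted p of 0.0888 without 3d DM replicate 1 and 0.0655 without 3d DM replicate 2. *Calr* (calreticulin), the calcium buffer of the reticulum in most cells, had 4181 and 4264 in GM against 2415 and 4134 in 3d DM. Its change of -0.42 (SE 0.41) was not called (limma adjusted p = 0.592).

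Of the store-operated pair, *Orai1* rose and *Stim1* was not called. *Orai1*, the channel of the surface membrane, had values of 141.0 and 82.3 in GM against 262.5 and 331.4 in 3d DM (log2 fold change 1.44, SE 0.48, limma adjusted p = 0.0193). *Stim1*, the sensor of the store's calcium that opens it, had 146.1 and 121.4 against 268.9 and 338.1 (1.17, SE 0.47, limma adjusted p = 0.0713). Neither gene's states overlapped. *Stim1* passed the threshold after rescaling by median-of-ratios (adjusted p = 0.00789) or trimmed-mean factors (0.00818). *Orai1* did not pass it without any 1 of the 4 libraries, with adjusted p from limma of 0.0844 and 0.609 without the first and second GM replicate and 0.191 and 0.182 without those of 3d DM.

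Among the calcium sensors and kinases, 2 of 5 rose. *Camk2a*, the α subunit of calmodulin-dependent kinase II, had values of 65.5 and 18.1 in GM against 1048 and 1335 in 3d DM (log2 fold change 5.05, SE 0.47, limma adjusted p = 2.49e-24). *Camk2b* had 4.2 and 3.0 in GM against 31.7 and 33.0 in 3d DM (2.87, SE 0.75), so its level stayed low. *Camk2g* and *Camk2d*, the widely expressed subunits, had 849.4 to 1214 and 586.5 to 722.1 over the 4 libraries, with overlapping states and changes of -0.04 and 0.07. The sign for *Camk2g* turned under both rescalings (0.17 and 0.15) and that for *Camk2d* without GM replicate 2 or 3d DM replicate 2. Per kb, *Camk2a* was 3.02% and 0.980% of the kinase family in GM against 38.3% and 36.5% in 3d DM, second to *Camk2g* with 46.0% and 49.2%. *S100a1*, a calcium-binding protein that acts on the ryanodine receptor, had 413.6 and 138.5 against 438.4 and 386.4 (0.78, limma adjusted p = 0.282), and its states overlapped. Without 3d DM replicate 1, adjusted p from limma was 0.052 for *Camk2a* and 0.121 for *Camk2b*, and without 3d DM replicate 2 it was 0.0871 for *Camk2b*.

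Of the 3 genes of membrane excitation, 2 were called. *Scn4a*, the sodium channel of the muscle action potential, had values of 11.7 and 3.0 in GM against 711.7 and 779.6 in 3d DM, with the largest log2 fold change of any member (6.71, SE 0.54, limma adjusted p = 5.49e-33). *Clcn1*, the chloride channel that steadies the resting membrane of adult fibres, had 6.3, 8.0, 5.3 and 8.2, under the filter everywhere. *Kcnj2*, an inward rectifier potassium channel that sets the resting potential, had 156.3 and 19.1 in GM against 133.2 and 173.1 in 3d DM. It was called (1.44, SE 0.52, limma adjusted p = 0.0356), yet GM replicate 1 lay between both 3d DM libraries, and without GM replicate 2 the change was -0.04. The adjusted p of *Kcnj2* was 0.574 without 3d DM replicate 1, 0.542 without 3d DM replicate 2, 0.203 and 0.209 after median-of-ratios and trimmed-mean rescaling, and 0.0596 without a filter on low values.

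The pathway reaches beyond these members, and 82 further calcium and excitation genes were listed by role. The table used here held 81 of them, 48 were tested, 9 were higher in 3d DM and 3 lower, with a median log2 fold change of 0.10. Over all 11406 tested genes, 7.01% were called higher and 9.96% lower, with a median of -0.22. Among the rises were those of *Pvalb* (5.12), the calcium buffer parvalbumin, *Kcnn3* (4.38), a calcium-activated potassium channel, and *Kcnj12* (3.28), another inward rectifier. These 3 reached the filter value in the 3d DM libraries alone, so they had to be higher there, and the stricter filter of 3 libraries left 6 of the 9 rises. *Pvalb* had values of 1.1 and 0.0 in GM against 61.5 and 39.1 in 3d DM and stayed low. The 3 that fell were *Mcub* (-2.67), a brake on the mitochondrial calcium uniporter, *Sri* (-1.58), the calcium-binding protein sorcin, and *Stac2* (-1.41), a relative of *Stac3*. *Stac2* had 1409 and 916.2 in GM against 365.1 and 500.3 in 3d DM, the opposite order to *Stac3*. The rises numbered 15 without a filter on low values, 13 after median-of-ratios and 12 after trimmed-mean rescaling, and the falls 7 after either rescaling. The rises numbered 5 without GM replicate 2, 1 without 3d DM replicate 1 and 3 without 3d DM replicate 2. The falls numbered 1 without either GM replicate or 3d DM replicate 2, and 0 without 3d DM replicate 1.

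The bases before the transcription start are shown for 3 members with large rises because they hold the E-box CAGCTG, the hexamer preferred by MyoD and myogenin. RefSeq windows of GRCm38.p6 (the sequence of mm10) were at hand for 22 of the 35 members, in 24 windows. The hexamer, which reads the same on both strands, was in the 250 bases before the start in 9 of these 24 windows (37.5%) and in 13.0% of all 32851 windows. *Jph2* had overlapping windows that held the same site, so the 9 count that site more than once. Windows of all genes were counted in the same way, 32851 for 27025 genes. It was in windows of 7 of the 14 matched members called higher. It also stood before *Calr*, which was not called, and before *Ryr1* and *Scn4a* it was not found in these letters. The wider E-box CANNTG was in 62.5% of member windows and 66.2% of all windows. CAGCTG is in capitals below, 123 bases before the start in *Cacna1s* (chr1:136052561-136052810 on the plus strand), 195 in *Casq1* (chr1:172219896-172220145 on the minus strand) and 22 in *Hrc* (chr7:45335019-45335268 on the plus strand). A match is a description of the sequence and no measure of binding.
Cacna1s: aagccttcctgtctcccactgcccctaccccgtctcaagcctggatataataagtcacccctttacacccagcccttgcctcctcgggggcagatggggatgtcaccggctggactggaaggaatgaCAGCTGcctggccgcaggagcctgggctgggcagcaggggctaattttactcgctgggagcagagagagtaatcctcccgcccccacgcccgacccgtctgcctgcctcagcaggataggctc
Casq1: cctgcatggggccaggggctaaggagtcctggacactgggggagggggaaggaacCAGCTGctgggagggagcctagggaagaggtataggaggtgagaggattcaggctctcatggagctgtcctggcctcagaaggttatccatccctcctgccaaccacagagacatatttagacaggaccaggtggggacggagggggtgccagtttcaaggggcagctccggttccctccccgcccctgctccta
Hrc: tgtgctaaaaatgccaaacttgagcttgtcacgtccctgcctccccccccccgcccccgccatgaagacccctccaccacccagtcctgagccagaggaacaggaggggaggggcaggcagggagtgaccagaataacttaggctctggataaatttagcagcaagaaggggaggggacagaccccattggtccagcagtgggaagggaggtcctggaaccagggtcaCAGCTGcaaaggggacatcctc

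m6A peaks, places where RNA precipitated with the antibody exceeded the input at P ≤ 0.05 in the authors' calls, were found on 30 of the 35 members in at least 1 list. The number of members with a peak was 18 and 24 in the GM lists and 29 and 27 in the 3d DM lists (21.0 ± 4.24 against 28 ± 1.41, SD, n = 2). The states did not overlap, but a two-sided exact permutation test of 2 lists against 2 cannot go below p = 0.333. Over all genes tested for RNA, the share with a peak was 63.8% and 60.4% in GM against 62.8% and 53.5% in 3d DM. *Sln*, *Pln*, *Itpr1*, *Camk2b* and *Clcn1* had no peak in any list. *Ryr3*, *Cacna1s*, *Casq1* and *Scn4a* had a peak in both 3d DM lists and in no GM list, a pattern of 2.31% of the 9153 genes with a peak. No member had the opposite pattern, which 3.56% of genes showed. These 4 members had input values of 3.0 to 64.5 in GM and 250.9 to 2348 in 3d DM, and the part of that difference in the peak calls was not tested. Without the second GM list, 11 members had peaks in the 3d DM lists alone, and with a peak threshold of 1e-05 in place of the authors' own, 9 did. With a fold of at least 4, 2 did (*Ryr3* and *Scn4a*) and 3 had the opposite pattern (*Atp2a2*, *Cacng1* and *Jph2*). At that fold each of the 4 lists had a peak on 16 members, so the states did not differ in this count. At the threshold of 1e-05 the members with a peak numbered 12 and 13 in GM against 27 and 24 in 3d DM.

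**Figure D4:**
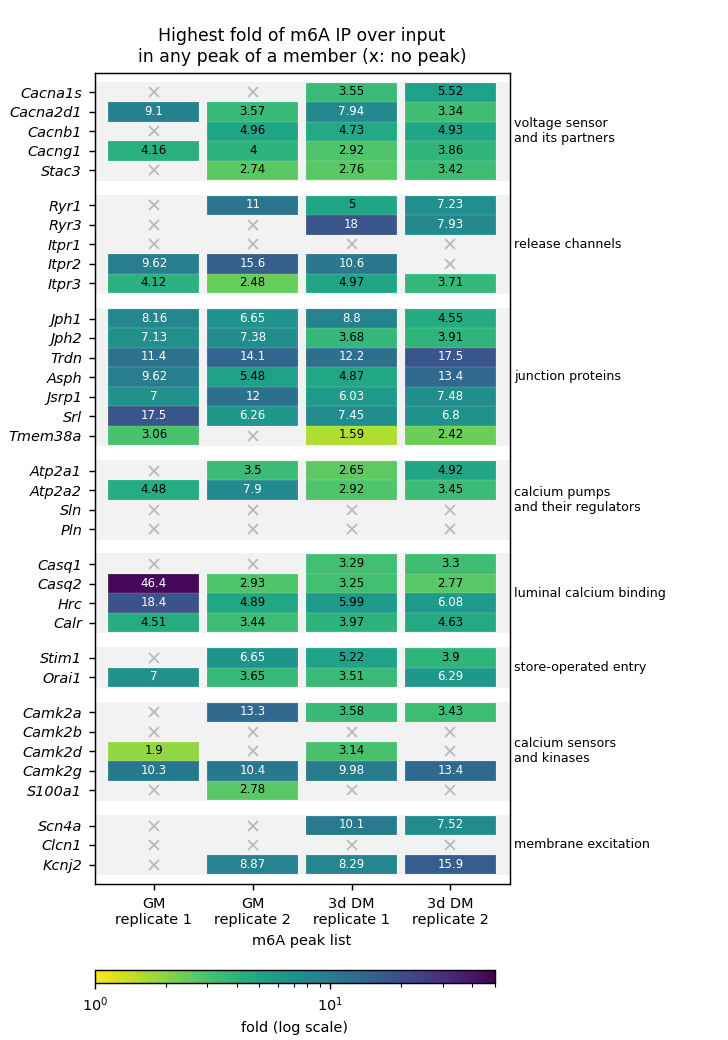
Highest fold of m6A IP over input among the peaks of each member in the 4 peak lists (colour on a log scale, value written in), by role, with a cross where a list has no peak. Crosses fill the GM columns of *Cacna1s*, *Ryr3*, *Casq1* and *Scn4a*, whereas *Trdn* and *Camk2g* show folds of 9.98 or more in every list.

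Coding sequence shared by the peaks of both 3d DM lists is printed for 3 of these members, in the region with the highest mean fold, to show what the antibody enriched. Capitals mark matches to DRACH, the sequence in which m6A is usually placed (D is A, G or T, R is A or G, and H is A, C or T), read on the transcript strand from mm10. The stretch of *Cacna1s* is chr1:136115148-136115276 on the plus strand (folds 3.18 and 5.52 in the 3d DM lists), that of *Ryr3* is chr2:112668045-112668144 on the minus strand (18 and 7.93), and that of *Scn4a* is chr11:106319667-106319966 on the minus strand (10.1 and 7.52). They hold 4, 1 and 7 matches.
Cacna1s: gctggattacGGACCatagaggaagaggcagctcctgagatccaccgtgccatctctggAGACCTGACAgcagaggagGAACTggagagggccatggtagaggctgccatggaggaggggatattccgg
Ryr3: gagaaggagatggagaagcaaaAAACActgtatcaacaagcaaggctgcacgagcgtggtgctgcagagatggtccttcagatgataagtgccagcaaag
Scn4a: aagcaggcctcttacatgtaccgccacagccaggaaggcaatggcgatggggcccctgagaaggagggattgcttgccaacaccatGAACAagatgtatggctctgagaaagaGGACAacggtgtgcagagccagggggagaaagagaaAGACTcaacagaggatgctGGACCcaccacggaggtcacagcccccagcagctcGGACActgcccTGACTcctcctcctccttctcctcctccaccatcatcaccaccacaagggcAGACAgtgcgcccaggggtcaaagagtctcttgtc

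Peak lines of the 4 lists that shared exonic bases of a gene were merged into regions, 79 on members and 19683 in all. Of the 79, 22 (27.8%) were in both 3d DM lists and no GM list, against 2.70% of all regions, and none was in both GM lists and no 3d DM list, against 3.83%. The 22 lay on 10 members, all called higher in RNA, and were led by *Ryr1* with 6 and by *Cacna1s*, *Cacnb1* and *Casq1* with 3 each. Among regions on all genes called higher in RNA the same pattern held for 19.3%, and among those on called members for 33.8%. The 9 regions of *Ryr1* all touched its coding sequence, with folds in the 3d DM lists from 1.55 to 7.23. Only 1 of the 9 was found in GM, in the second list, with a fold of 11. Of the members' regions 65.8% touched coding sequence and 55.7% the 3′ UTR, against 66.7% and 56.7% of all regions. DRACH occurred 20.7 times per kb of exonic region on members and 22.5 times on all genes.

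In 17 regions on 15 members a peak was called in all 4 lists, so that each list gave a fold. A fold is that of a list's highest line, and these lines need not lie at the same place in the region. The bases covered in all 4 lists were 1 of 450 for *Asph*, 62 of 1912 for *Casq2* and 180 of 2291 for *Hrc*. For *Calr* they were 898 of 1257. The highest lines of *Hrc* in the GM lists did not overlap. No difference between the states was called in the 17 (lowest limma adjusted p = 0.996) or in all 6055 such regions (0% called, 208 with an unadjusted p under 0.05). The median log2 difference of fold, 3d DM minus GM, was -0.38 over the 17 and -0.11 over all regions. The 12 genes with the highest mean fold follow in groups. *Trdn* had folds of 11.4 and 14.1 in GM against 12.2 and 17.5 in 3d DM, and *Camk2g* 10.3 and 10.4 against 9.98 and 13.4. These were high in every list and overlapped between states. *Casq2* had 46.4 and 2.93 against 3.25 and 2.77, *Hrc* 18.4 and 4.89 against 5.99 and 6.08, and *Srl* 17.5 and 4.30 against 3.06 and 4.04. In these 3, GM replicate 1 stood above the other 3 lists, and without it the log2 differences of -1.96, -0.65 and -1.30 became 0.03, 0.30 and -0.29. *Jph2* (the region at the start of its coding sequence) had 7.13 and 7.38 against 3.68 and 3.91, *Atp2a2* 4.48 and 7.90 against 2.92 and 3.45, and *Jph1* 8.16 and 6.65 against 5.22 and 4.55. The log2 differences of these 3 were -0.94, -0.91 and -0.60, none of them called. Both GM folds lay above both 3d DM folds in these 3 and in the regions of *Srl* and *Cacng1* (4.16 and 4.0 against 2.92 and 3.86), 5 of the 17 regions, against 21.8% of all 6055. In no member region did both 3d DM folds lie above both GM folds, but the share of all 6055 regions with that order was not computed. *Jsrp1* had 7.0 and 12 against 6.03 and 7.48, *Asph* 3.87 and 5.48 against 4.87 and 13.4, *Cacna2d1* 9.10 and 3.57 against 7.94 and 3.34, and *Orai1* 7.0 and 3.65 against 3.51 and 6.29, with overlapping states in each. The regions of *Calr*, *Cacng1* and *Itpr3* and the other 2 of *Jph2* had folds of 2.04 to 4.97.

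**Figure D5:**
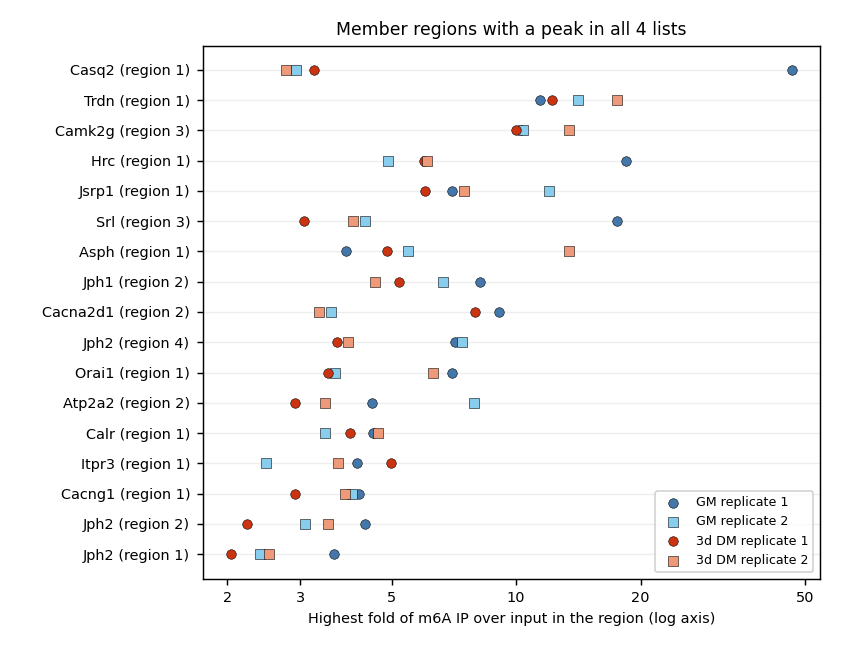
Highest fold of m6A IP over input (log axis) in each of the 17 member regions with a peak in all 4 lists, with 1 point per list and regions ordered by mean fold. GM replicate 1 lies alone on the right for *Casq2* (46.4), *Hrc* (18.4) and *Srl* (17.5), and the points of the other regions lie within a narrower range.

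The coding stretches under peaks in all 4 lists are printed for 4 junction and luminal proteins with high mean folds, with DRACH in capitals as above. The stretch of *Jsrp1*, a junction protein with a mean fold of 8.13, is not shown, though *Srl* (7.22) and *Jph1* (6.15) had lower ones. The printed stretch of *Hrc* lies outside the highest lines of both GM lists, where its folds of 18.4 and 4.89 were found. That of *Trdn* is chr10:33195952-33196138 on the plus strand, that of *Hrc* chr7:45336242-45336421 on the plus strand, that of *Srl* chr16:4482862-4483048 on the minus strand and that of *Jph1* chr1:17004166-17004285 on the minus strand, all in mm10. They hold 8, 4, 7 and 3 matches.
Trdn: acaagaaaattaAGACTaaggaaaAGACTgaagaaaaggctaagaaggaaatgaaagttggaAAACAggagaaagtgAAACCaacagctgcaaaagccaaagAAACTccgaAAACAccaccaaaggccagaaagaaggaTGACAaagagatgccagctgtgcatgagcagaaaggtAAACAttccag
Hrc: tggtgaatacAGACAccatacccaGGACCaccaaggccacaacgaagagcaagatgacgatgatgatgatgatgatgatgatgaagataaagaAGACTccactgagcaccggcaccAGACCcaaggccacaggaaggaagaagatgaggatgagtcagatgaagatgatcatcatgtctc
Srl: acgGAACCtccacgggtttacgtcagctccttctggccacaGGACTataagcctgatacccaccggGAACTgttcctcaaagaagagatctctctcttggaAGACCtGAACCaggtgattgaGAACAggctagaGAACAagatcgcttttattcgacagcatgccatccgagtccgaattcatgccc
Jph1: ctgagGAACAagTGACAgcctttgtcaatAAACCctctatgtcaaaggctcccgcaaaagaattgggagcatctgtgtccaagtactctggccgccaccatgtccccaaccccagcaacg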

How the data were processed

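Input RNA and m6A IP libraries of C2C12 myoblasts in GM and 3d DM were assigned to states from the sample labels, and all 8 were used. Per the labels and methods, the authors trimmed adaptors, used HISAT2 (v2.1.0) with the mm10 genome, handled gene counts with edgeR, and ran exomePeak on every sample with the matching input. The counting tool and annotation are not given in the sources used here. The deposited expression table holds a normalized signal that carries the name of the trimmed-mean method (TMM). Low values are neither whole nor multiples of a step, so no reads were recovered and the depth is unknown. The peak lists deposited by the authors give a fold, the ratio of IP over input, and a p-value per peak, without read numbers, so no counting error is given.

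RNA was tested in R 4.3.3 with limma 3.58.1, using log2(value + 1) and an intensity trend, for genes that reached 2 cpm of the column total (25.1) in 2 or more libraries. Fold changes on this scale understate those of low genes. Folds at regions found in all 4 lists were tested the same way on log2(fold), taking the highest line of a list. Exonic lengths are unions of GENCODE M21 protein-coding transcripts. Python 3.11.15, pandas 2.3.3, samtools 1.23.1 and matplotlib 3.10.9 were used.

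The members and gene lists were chosen with earlier results of these data known. Named were all members, the 5 further genes that changed most in each direction and were called, *Myh3*, *Ckm*, *Myog* and *Mki67*, and the folds of the 12 genes with the highest mean fold. Some genes that the rule names are not reported here. The coding stretches from the 3d DM lists and the promoter windows were chosen after the values were seen. Those under peaks in all 4 lists were not strictly the ones of highest mean fold. Protein sequences were not used here. Alternatives were pseudocounts of 0.1 and 4, other filters, rescalings, limma without trend, a replicate block, stricter peaks, other region rules and each library left out.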

Additional observations from a re-analysis of the deposited data

How the results depend on the processing

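With all libraries kept, the count of members called higher stayed between 19 and 23, and none was called lower under any alternative. The replicate block, for numbers that pair only 2 libraries of each state (correlation of deviations 0.29), gave 19 for the members, 8 rises and 2 falls among the further genes, and no called region. Leaving out 1 library gave 5 to 20 members called higher, 1 to 10 rises and 0 to 1 falls among the further genes. Without a filter on low values the further genes had 15 rises. Under median-of-ratios and trimmed-mean rescaling they had 7 falls each. Of 381 recomputed member changes, 50 lost the call (42 of them without a library), 2 gained it (*Stim1*) and 8 changed sign, 6 of them without a library, where the change ranged from -0.04 to 2.93 for *Kcnj2*, -0.08 to 0.22 for *Camk2d*, -0.30 to 0.22 for *Camk2g* and -0.01 to 1.56 for *S100a1*. For *Camk2g* it was 0.17 and 0.15 under the rescalings. A peak threshold of 1e-05 gave 12 and 13 members with a peak in the GM lists against 27 and 24 in the 3d DM lists. With it, 9 members had peaks in the 3d DM lists alone. Peaks with a fold of at least 4 gave 16 members in each GM list and 16 in each 3d DM list, so these counts no longer differed between the states. At that fold 2 members had peaks in the 3d DM lists alone and 3 in the GM lists alone. Leaving out 1 list gave 4 to 11 in the 3d DM lists alone and 0 to 1 in the GM lists alone. No region was called under any alternative. Of 136 recomputed differences of member regions, 12 changed sign, 9 of them without a list, where the ranges were -0.82 to 0.53 for *Cacna2d1*, -0.07 to 0.32 for *Calr*, -0.05 to 0.37 for *Camk2g*, -3.95 to 0.03 for *Casq2*, -1.61 to 0.30 for *Hrc*, -0.58 to 0.36 for *Orai1* and -0.06 to 0.46 for *Trdn*. With the median fold of a region's lines that of *Camk2g* was -0.44 and that of *Trdn* -0.34, and with centred folds that of *Orai1* was 0.0038. Unless stated, the cause of a change was not tested. With unknown depth and 2 libraries in each state, the standard errors of the members' log2 differences of fold were 0.36 to 0.91, and differences as large as -1.96 (*Casq2*, SE 0.91) were not called.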
